A study of Mus musculus with 18 samples.

Results

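Egr2 and Fosl2 are immediate early transcription factors, and their signal was described in the cortex and hippocampus of young mice kept under control conditions or under chronic hypoxia. Their probes were those whose zero-padded identifier holds the mouse NCBI gene ID of either gene. They are 2 of the 8127 genes that could be named in this way, and their probes were 3 of the 46120 on the array, 1 for Egr2 (scl013654.4_67) and 2 for Fosl2 (scl0014284.1_16 and scl014284.4_6). A probe counted as detected on an array when its deposited detection score was above 0.99, and it entered the tests when detected on at least 3 of the 18 arrays. The Egr2 probe was detected on 11 arrays and the first Fosl2 probe on all 18, so 2 of the 3 probes entered the tests. The second Fosl2 probe was detected on 0 of 18 arrays, with a raw intensity of 56.3 to 76.7, and is not compared between groups.

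Immediate early genes are switched on within minutes of a stimulus by transcription factors that are already present in the cell, such as serum response factor and CREB, which act downstream of calcium entry and MAP kinase signalling. Egr2, also called Krox20, is a zinc finger factor of the EGR family. It is known for patterning the hindbrain and for driving the myelin programme of Schwann cells in peripheral nerve, and in forebrain neurons it follows synaptic activity. Fosl2, also called Fra-2, pairs with a Jun protein to form the AP-1 factor. In many cell types it appears later and lasts longer than Fos after a stimulus.

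The arrays carried RNA from CD-1 mice, labelled male and aged 16 days, without transgenes or deletions in the labels. There were 6 groups of 3 arrays. In each tissue, cortex or hippocampus, they were controls, mice under chronic consistent hypoxia (CCH) and mice under the chronic intermittent form (CIH). Hypoxia began at postnatal day 2 and lasted 2 weeks, and neither the oxygen level nor the cycle length is given in the sources used here. Whether the 3 arrays of a group came from separate animals is not stated, so the p-values measure the spread between these arrays, which may in part be technical. In each hypoxia group the sex-linked genes described below differed between arrays, so its arrays did not all come from the same animal.

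The promoters are shown because the signal-responsive elements of immediate early genes lie close to their start sites. Sequences are from RefSeq (GRCm38.p6) and run from 250 bases before to 50 bases after a gene's start, 5′ to 3′ on the plus strand, which is the strand of both genes. Both genes matched, Egr2 with 5 annotated windows and Fosl2 with 1. The Egr2 window printed is the one that held the most kinds of motif among the CArG box, TGACG and the EGR motif, with the lowest start taken at ties, so its matches were part of the choice. The Egr2 window lies at chr10:67537619-67537918, within the annotated gene span of 67534469 to 67542188 on chromosome 10. Its capitals mark, in order, the CREB core TGACG, a CArG box (CCATATATGG, the core of the serum response element) and CGTCA, which is TGACG read on the other strand. The Fosl2 window lies at chr5:32136222-32136521, at the start of the gene span of 32136472 to 32157840 on chromosome 5. Its capitals mark the EGR motif GCGNGGGCG.
Egr2: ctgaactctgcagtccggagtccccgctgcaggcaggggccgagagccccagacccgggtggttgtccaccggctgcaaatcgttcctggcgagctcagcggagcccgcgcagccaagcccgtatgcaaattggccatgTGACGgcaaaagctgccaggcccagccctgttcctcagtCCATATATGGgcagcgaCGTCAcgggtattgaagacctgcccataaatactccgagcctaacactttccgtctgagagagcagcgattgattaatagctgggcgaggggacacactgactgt
Fosl2: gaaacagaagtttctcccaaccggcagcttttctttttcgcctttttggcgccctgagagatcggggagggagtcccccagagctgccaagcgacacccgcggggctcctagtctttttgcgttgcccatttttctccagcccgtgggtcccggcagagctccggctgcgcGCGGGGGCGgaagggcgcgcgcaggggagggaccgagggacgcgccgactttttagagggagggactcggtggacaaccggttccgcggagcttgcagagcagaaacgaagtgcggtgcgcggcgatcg

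In the printed Egr2 window the CArG box began 72 bases before the start, and the TGACG cores on the plus and minus strands began 111 and 55 bases before it. A CArG box was found, on either strand, in 1.63% of the 32851 mouse promoter windows of this length, and TGACG or its reverse complement in 20.8%. In the Fosl2 window the EGR motif began 79 bases before the start and overlapped a GC box (GGGCGG) that began at 75 bases. The EGR motif was found in 5.55% of all windows and the GC box in 35.7%. Neither printed window held the full CREB site TGACGTCA (1.79% of windows) or the AP-1 site TGANTCA (7.81%). Of the 5 Egr2 windows, some of which overlap, 4 held a CArG box and 3 held TGACG. The 3 windows with TGACG overlap and share the same CArG box and the same TGACG cores, so these counts repeat the same sites. The remaining window with a CArG box held another one, CCTTTTTTGG. The first of them, at chr10:67535249-67535548, held neither and had 4 GC boxes. These are matches of letters, and binding was not measured.

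Across the arrays the median raw intensity ranged from 70.8 to 96.4, and the number of detected probes from 12248 to 14527. Values below are normalized signals on the log2 scale unless raw intensity is named, and a difference of 1 on that scale is a doubling. Tissue labels were compared with marker genes picked after the data had been seen. Of the hippocampal markers 4 were measured, and 3 were higher on every hippocampal array than on any cortical array. Of the cortical markers 5 were measured, and 4 were higher on every cortical array. Fibcd1, a gene of hippocampal pyramidal cells, lay at 7.77 to 8.60 in cortex and 10.99 to 11.78 in hippocampus, and the upper-layer cortical factor Cux2 lay at 7.71 to 8.66 in cortex and 6.90 to 7.24 in hippocampus. The exceptions were the hippocampal marker Tyro3, at 7.04 to 7.97 in cortex and 6.82 to 7.15 in hippocampus, and the cortical marker Nr4a2, at 8.84 to 9.59 in cortex and 9.66 to 10.12 in hippocampus. The cortical factor Foxp2 was detected on 0 arrays.

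A check of the labels found Xist, the RNA that silences an X chromosome in female cells, on 5 of the 18 arrays that are all labelled male. In cortex these were CCH 2 and 3 and CIH 2, and in hippocampus CCH 3 and CIH 2, at 9.36 to 10.18, against 6.53 to 6.57 on the other 13. The Y-linked gene Kdm5d was detected on 0 of these 5 and on 12 of the other 13, the exception being control cortex 2 (6.71). None of the control arrays had Xist, so the comparisons with hypoxia are also given without these 5 arrays. The arrays lay on 3 slides, 1 array of each group per slide, and a group kept the same position on every slide. Group and slide position therefore cannot be told apart.

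Egr2 was high in control cortex, lower in the cortex of both hypoxia groups and near the detection limit in hippocampus. Its raw intensity in control cortex was 555.6, 363.3 and 396.7 on arrays 1, 2 and 3. In CCH cortex it was 284.4, 185.6 and 176.8, and in CIH cortex 217.3, 153.8 and 292.6. Every control cortex array was brighter than every hypoxic cortex array. After normalization, control and hypoxic cortex did not overlap at 15.1% of all probes for CCH and at 12.5% for CIH.

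In control hippocampus the raw Egr2 intensity was 129.4, 115.9 and 109, of which only the last passed the detection score. In CCH hippocampus it was 133.5, 97.6 and 92.8, all undetected, and in CIH hippocampus 108.5, 101.1 and 105.1, with detection on array 3 alone. The 3 hippocampal groups overlapped.

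After normalization Egr2 averaged 8.08 ± 0.35 (SD, n = 3) in control cortex, 7.20 ± 0.33 in CIH cortex and 7.12 ± 0.10 in CCH cortex. The means in hippocampus were 6.75 ± 0.05 in control, 6.67 ± 0.07 in CCH and 6.67 ± 0.04 in CIH. The lowest signal called detected on an array was 6.68 to 6.77, so the hippocampal values sit at that limit and a lower level could not have been seen there. In the order of the 6 means, control cortex stood apart, CIH cortex (6.96 to 7.58) and CCH cortex (7.05 to 7.23) overlapped, and all cortical arrays lay above all hippocampal arrays (6.63 to 6.80). Separation of the control tissues was common on these arrays, and the control groups alone did not overlap at 26.8% of probes. The share for all cortical against all hippocampal arrays was not counted. The Egr2 probe also passed the detection filter through its cortical arrays, which favours this order.

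Fosl2 was measured well above the limit in every group and showed another order, with hippocampus above cortex. Its raw intensity in control cortex was 564.8, 516.9 and 528.5. In CCH cortex it was 452.7, 387.5 and 299.1, and in CIH cortex 351.1, 321.3 and 344.4. The lowest control cortex array was again brighter than all hypoxic cortex arrays. The shares of all probes given for Egr2 apply here too.

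The raw Fosl2 intensity in control hippocampus was 493.2, 661.4 and 516.9. In CCH hippocampus it was 612.7, 596.5 and 447.7, and in CIH hippocampus 611.8, 536.9 and 528.3. These 3 groups overlapped throughout.

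Normalized Fosl2 averaged 8.80 ± 0.20 in CCH hippocampus, 8.79 ± 0.23 in control hippocampus, 8.75 ± 0.07 in CIH hippocampus, 8.49 ± 0.05 in control cortex, 7.94 ± 0.15 in CCH cortex and 7.82 ± 0.12 in CIH cortex (SD, n = 3). Within that order the 3 hippocampal groups did not differ beyond their spread, nor did CCH and CIH cortex. Control cortex (8.43 to 8.54) lay between, below every hippocampal array (8.57 to 9.05) and above every hypoxic cortex array (7.68 to 8.11). Before normalization control cortex (516.9 to 564.8) lay within the raw range of hippocampus (447.7 to 661.4). Control tissues did not overlap at 26.8% of all probes, and control and hypoxic cortex at 15.1% for CCH and 12.5% for CIH.

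**Figure D1:**
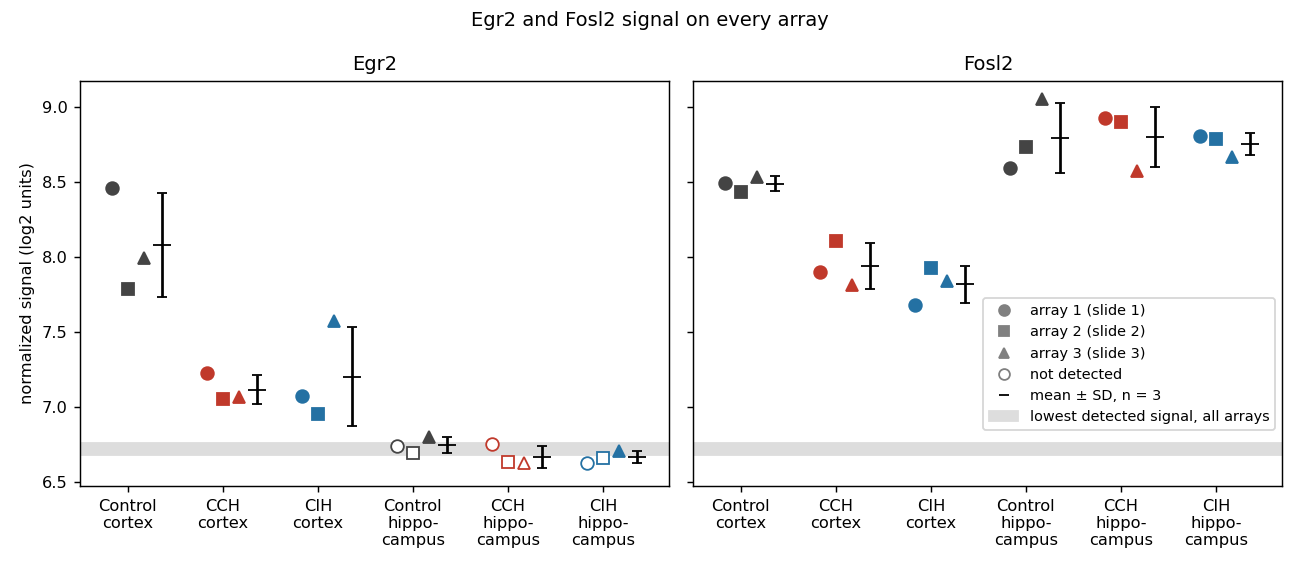
Normalized signal (log2 units) of Egr2 and Fosl2 on each of the 18 arrays, by group, with marker shapes for slides 1 to 3, open markers for arrays without detection, and the mean ± SD of 3 arrays beside each group. Egr2 lies within or next to the grey band of the lowest detected signal (6.68 to 6.77) in hippocampus and falls from 8.08 in control cortex to 7.12 and 7.20 in hypoxic cortex, while Fosl2 stays between 8.57 and 9.05 in hippocampus.

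CCH against control in cortex asked whether continuous hypoxia changed the 2 factors. Both fell. Egr2 was 1.95-fold lower in CCH cortex, a log2 difference of −0.97 ± 0.15 (SE, n = 3 per group; 95% interval −1.30 to −0.63; limma adjusted p = 0.00813). Fosl2 was 1.46-fold lower, a log2 difference of −0.55 ± 0.12 (−0.80 to −0.29; limma adjusted p = 0.0465). Of the 14664 probes tested in this comparison, 0.846% were called at an adjusted p under 0.05, 0.389% as lower. Groups did not overlap at 15.1% of probes, with the hypoxic group below at 7.42%. The tissue is bulk, so fewer cells of a type and less RNA per cell cannot be told apart.

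Within slides 1, 2 and 3 the Egr2 difference was −1.24, −0.73 and −0.93, and that of Fosl2 was −0.60, −0.32 and −0.72. The shared direction was fixed in advance, because every control array lay above every CCH array for both genes. The Egr2 call held without each of the 6 arrays in turn, at adjusted p-values up to 0.0384. The Fosl2 call held without CCH cortex 2 (adjusted p = 0.0372). It did not pass without control cortex 1 (0.168), 2 (0.0913) or 3 (0.157), or without CCH cortex 1 (0.138) or 3 (0.178), and with the slide as a block its adjusted p in limma was 0.0562. Without the arrays with Xist, which leaves CCH cortex 1 alone in its group and assumes that it varies like the other groups, Egr2 was at −0.85 (limma adjusted p = 0.0762) and Fosl2 at −0.59 (0.0548).

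Intermittent hypoxia in cortex was compared with the same 3 control arrays. Both factors fell here too. Egr2 was 1.84-fold lower, a log2 difference of −0.88 ± 0.15 (SE, n = 3 per group; 95% interval −1.21 to −0.55; limma adjusted p = 0.0437). Fosl2 was 1.59-fold lower, a log2 difference of −0.67 ± 0.12 (−0.92 to −0.42; limma adjusted p = 0.0437). In this comparison 22 probes, 0.15% of those tested, were called, 0.0818% as lower. Groups did not overlap at 12.5% of probes, with CIH below at 4.6%. By p-value Egr2 ranked 18 and Fosl2 19 among the 14664 probes.

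The within-slide differences were −1.39, −0.83 and −0.42 for Egr2 and −0.81, −0.50 and −0.69 for Fosl2. CIH cortex 3 had the highest Egr2 signal of its group (7.58), and without it the difference was −1.07 (limma adjusted p = 0.00674). The Egr2 call also held without control cortex 2 (0.0324) but not without control cortex 1 (0.157) or 3 (0.102) or CIH cortex 1 (0.167) or 2 (0.184). The Fosl2 call was lost without any of the 6 arrays, at adjusted p-values of 0.112 to 0.17 and differences of −0.72 to −0.60, and with the slide as a block (adjusted p = 0.0616 in limma). Without the arrays with Xist, of which CIH cortex 2 belongs here, Egr2 was at −0.75 (limma adjusted p = 0.355) and Fosl2 at −0.72 (0.108).

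**Figure D2:**
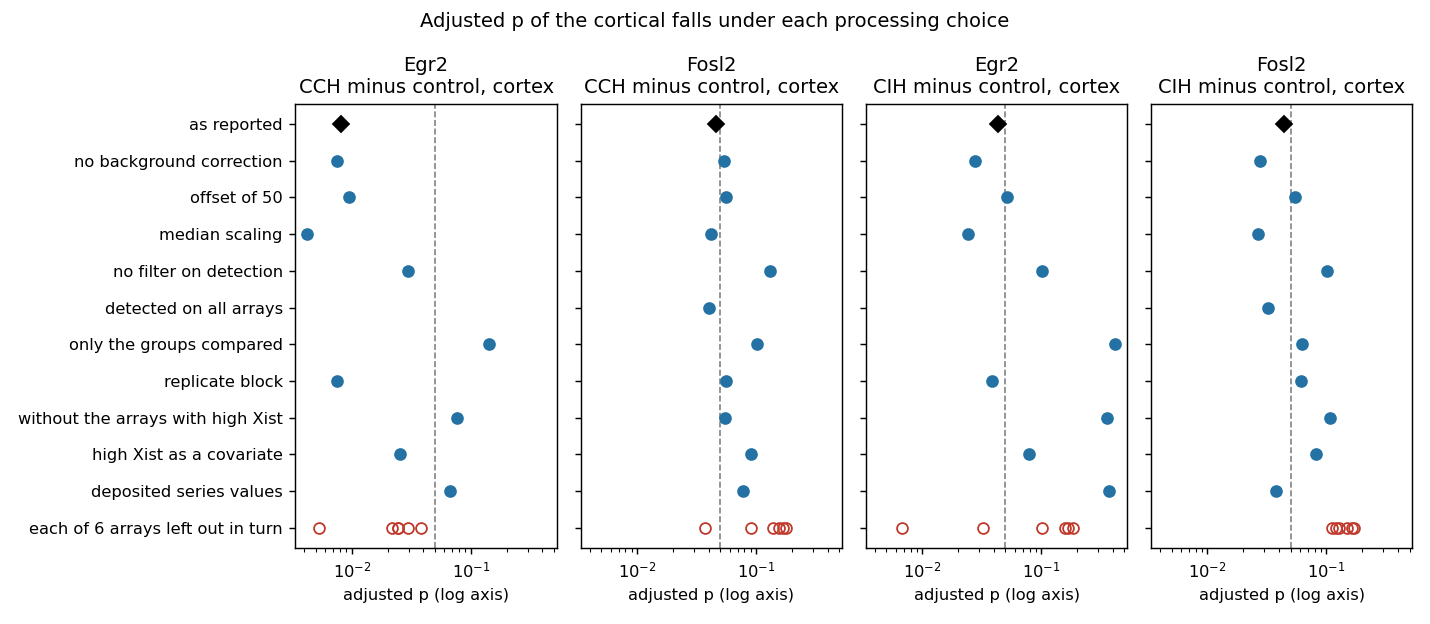
Adjusted p (log axis) of the 4 cortical differences under each processing choice, with the reported value as a black diamond, other choices as blue points, fits that each leave out 1 of the 6 arrays as open red circles, and a dashed line at 0.05. The Egr2 panels lack a point for the filter that asks for detection on all arrays, which its probe did not pass. Only Egr2 in CCH cortex stays left of the line for all left-out arrays, and Fosl2 in CIH cortex moves to 0.112 or above for each of them.

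Direct comparison of the hypoxia groups in cortex found no call for either factor. The difference of CIH from CCH was 0.09 for Egr2 (95% interval −0.25 to 0.42; limma adjusted p = 0.907) and −0.12 for Fosl2 (−0.38 to 0.13; 0.8), in a comparison where 0.471% of probes were called. The intervals allow a difference in either direction for both genes. For Egr2 the sign turned to −0.10 without CIH cortex 3. With the Xist arrays left out the differences were 0.10 for Egr2 (limma adjusted p = 0.904) and −0.14 for Fosl2 (0.734).

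In hippocampus neither hypoxia moved Fosl2 past the test. The Fosl2 difference was 0.01 for CCH (95% interval −0.25 to 0.26; limma adjusted p = 0.999) and −0.04 for CIH (−0.29 to 0.21; adjusted p = 1). These intervals leave out a fall as large as the estimates in cortex, −0.55 and −0.67. Array 3 differed from the other slides, with a within-slide difference of −0.48 for CCH against 0.33 and 0.16, and of −0.38 for CIH against 0.21 and 0.05. Control hippocampus 3 had the highest normalized Fosl2 signal of all arrays (9.05), but its raw intensity (516.9) lay below that of control hippocampus 2 (661.4). It also had the lowest median raw intensity (70.8) and the lowest raw 18S ribosomal RNA signal (4755.77) of all arrays. Without the arrays with Xist the Fosl2 difference was 0.12 for CCH (limma adjusted p = 0.874) and −0.06 for CIH (0.997). Of all probes 0.518% were called for CCH and 0.0614% for CIH in hippocampus.

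Egr2 differed by −0.07 for CCH (95% interval −0.41 to 0.26; limma adjusted p = 0.988) and by −0.08 for CIH (−0.41 to 0.25; adjusted p = 1) in hippocampus. With detection on 1, 0 and 1 of the 3 arrays in control, CCH and CIH, these differences describe the detection limit, and a fall was not detectable there. CIH against CCH in hippocampus gave −0.00 for Egr2 (limma adjusted p = 1) and −0.05 for Fosl2 (0.998), where 0.286% of probes were called. Without the arrays with Xist Egr2 was at −0.05 for CCH (limma adjusted p = 0.978) and −0.08 for CIH (0.998) against control, and CIH against CCH was at −0.02 for Egr2 (0.998) and −0.18 for Fosl2 (0.892).

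Whether the fall differed between tissues was tested as an interaction. The difference of hypoxia from control was higher in hippocampus than in cortex by 0.89 ± 0.22 (SE) for Egr2 under CCH (95% interval 0.42 to 1.36), by 0.55 ± 0.17 for Fosl2 under CCH (0.20 to 0.91), by 0.80 ± 0.22 for Egr2 under CIH (0.33 to 1.27) and by 0.63 ± 0.17 for Fosl2 under CIH (0.27 to 0.99). All 4 values were above 0 on all 3 slides. The cortical part of each was fixed in sign, because the groups did not overlap, and for Egr2 the hippocampal part sat at the detection limit. The shared sign is therefore no separate evidence. None passed the adjustment over all probes in limma, with adjusted p-values of 0.996 for both genes under CCH and 1 for both under CIH. The interaction had 0 called probes (0%) under either hypoxia, while 4.57% of probes had an unadjusted p under 0.05 for CCH and 2.61% for CIH. The unadjusted p was 0.00115 and 0.0051 for Egr2 and Fosl2 under CCH and 0.00262 and 0.00204 under CIH, which ranked them 12, 51, 13 and 9 among 14664 probes. The interaction without the Xist arrays was 0.80 for Egr2 (limma adjusted p = 0.245) and 0.71 for Fosl2 (0.119) under CCH, where 123 probes were then called, and 0.68 (0.999) and 0.67 (0.999) under CIH, where 0 were. For Egr2 the value also carries the detection limit in hippocampus, and a larger fall there could not have been measured.

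**Figure D3:**
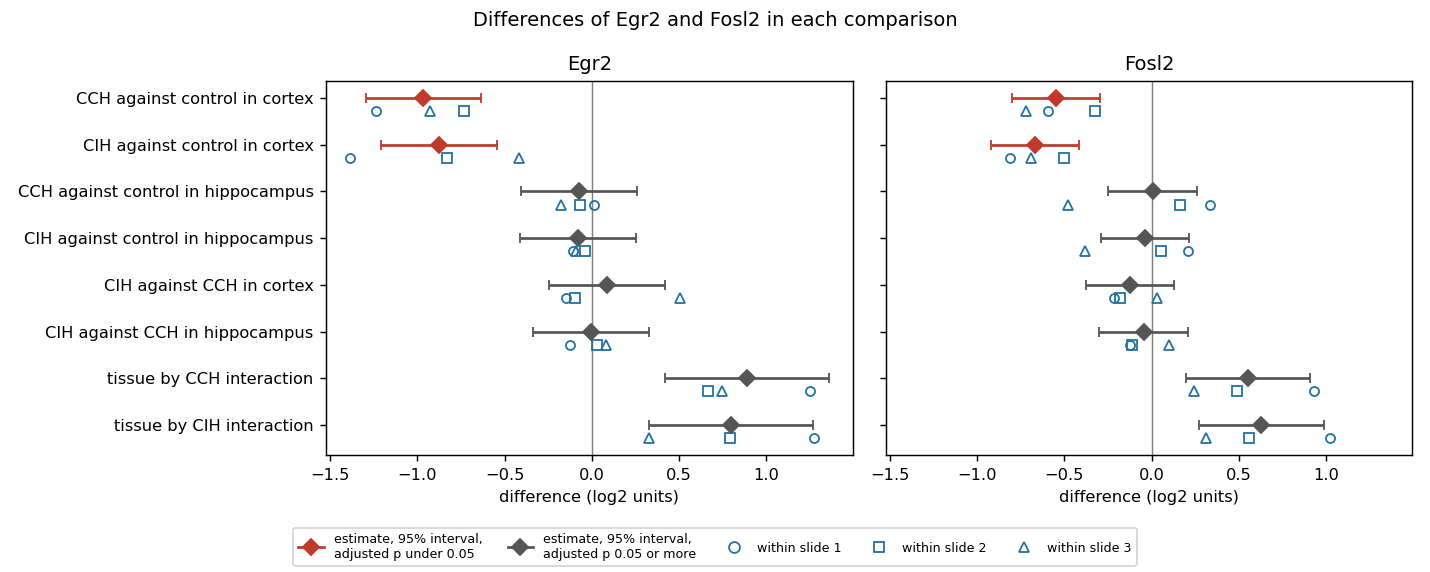
Differences in log2 units for Egr2 and Fosl2, with the estimate over 3 arrays per group and its 95% interval as a diamond and bar (red for an adjusted p under 0.05) and the differences within slides 1, 2 and 3 as open markers. All within-slide values are below 0 for CCH and CIH against control in cortex, as they must be where the groups do not overlap. They are above 0 for both interactions, which the fixed sign of the cortical part favours, and the hippocampal intervals include 0.

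The tissues were also compared within each condition. The fit treated cortical and hippocampal arrays as independent. CCH arrays numbered 2 had Xist in cortex (10.05) but not in hippocampus (6.56), so they did not share an animal. For the other numbers a shared animal is possible. The Egr2 probe was detected on every cortical array and passed the detection filter through them, so a lower value in hippocampus was favoured by the filter. Since Egr2 was detected on few hippocampal arrays, its folds were taken with each hippocampal value raised, where it was lower, to the lowest detected signal of its array. In controls, with detection on 1 of 3 hippocampal arrays, Egr2 was then 2.50-fold lower in hippocampus than in cortex, and the fitted log2 difference was −1.33 ± 0.15 (SE, n = 3 per group; limma adjusted p = 4.1e-05), in a comparison where 11.7% of probes were called. Under CCH, with detection on 0 of 3, Egr2 was at least 1.29-fold lower in hippocampus and did not pass (log2 difference −0.44; limma adjusted p = 0.0726). The values without the arrays with Xist were −0.53 and 0.211. Under CIH, with detection on 1 of 3, Egr2 was 1.39-fold lower. The fitted log2 difference was −0.54 ± 0.15 and passed (limma adjusted p = 0.0394). Its size depends on the background correction, without which it was −0.91 under CIH and −0.84 under CCH. The CIH call held without CIH cortex 2 but not without CIH cortex 1 (0.051) or 3 (0.165), without any CIH hippocampus array (0.0873 to 0.107) or without the arrays with Xist (−0.66, adjusted p = 0.111). These comparisons called 14.3% of probes under CCH and 10.7% under CIH.

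Fosl2 ran the other way. In controls it was 0.31 ± 0.12 (SE) higher in hippocampus (95% interval 0.05 to 0.56) and did not pass (limma adjusted p = 0.126), although the arrays of the tissues did not overlap, as at 26.8% of probes. Without control hippocampus 1 the difference was 0.40 and passed (adjusted p = 0.0486). Under CCH Fosl2 was 1.81-fold higher in hippocampus (log2 difference 0.86 ± 0.12; limma adjusted p = 0.00019), and under CIH 1.91-fold higher (0.94 ± 0.12; adjusted p = 9.86e-05). Both calls held without any array of these groups and without the arrays with Xist, at 1.01 (adjusted p = 0.00386) under CCH and 0.97 (0.00205) under CIH.

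The relatives of Egr2 were measured in part. Of 6 genes of the EGR family and its NAB corepressors, which bind EGR proteins and dampen them, 4 had a named probe and 3 were measured, Egr2, Nab1 and Nab2. Egr3 was detected on 0 of 18 arrays, and Egr1 and Egr4 had no named probe. Nab2 was detected in every group and averaged 6.99 ± 0.06 in control cortex and 6.99 ± 0.07 in CIH cortex (SD, n = 3), and its difference from control was 0.01 in CCH cortex and 0.00 in CIH cortex. The best detected of 4 Nab1 probes differed from control by −0.07 in CCH cortex (limma adjusted p = 0.782) and −0.10 in CIH cortex (0.905), and the other 3 were detected on at most 2 arrays. Of the 3 measured genes 1, Egr2, was called lower in either cortical comparison and 0 in hippocampus.

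Of 18 genes of the Fos and Jun families and their leucine zipper partners, 6 had a named probe and 5 were measured: Fosl2, Junb, Atf2, Maf and Mafg. Batf3 was detected on 0 arrays, and Fos, Fosb, Fosl1, Jun and Jund had no named probe. Junb, a Jun protein that can pair with Fosl2, averaged 7.55 ± 0.17 in control cortex, 7.76 ± 0.36 in CCH cortex and 7.77 ± 0.34 in CIH cortex. In each hypoxic cortex group 1 array was high, CCH cortex 1 at 8.16 and CIH cortex 3 at 8.15, and the others (7.50 to 7.64) lay within the control range of 7.36 to 7.68. The Junb difference was 0.21 for CCH (limma adjusted p = 0.757) and 0.22 for CIH (0.933) and did not pass in either. In hippocampus Junb averaged 7.37, 7.32 and 7.41 in control, CCH and CIH.

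The small Maf protein Mafg, a dimer partner without an activation domain, differed from control by −0.23 in CCH cortex (limma adjusted p = 0.459) and by −0.30 in CIH hippocampus (0.566). Atf2, a CREB-related partner of Jun, and Maf were within 0.15 of control in all 4 comparisons. Of the 5 measured genes 1, Fosl2, was called lower in either cortical comparison and 0 in hippocampus. The median of the 5 was −0.02 for CCH and 0.02 for CIH in cortex, against −0.00 and 0.01 over all probes.

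The other immediate early transcription factors on the list numbered 24, with 10 named and 6 measured: Nr4a2, Nr4a3, Klf2, Klf6, Cebpb and Btg1. None of the 6 was called in any of the 4 comparisons with control. The largest differences in CCH cortex were those of Cebpb, a leucine zipper factor (0.24, limma adjusted p = 0.619), and the zinc finger factor Klf2 (0.17, 0.474). In CIH cortex they were those of the orphan nuclear receptor Nr4a2 (−0.17, 0.951) and Cebpb (0.16, 0.939). In hippocampus Nr4a2 was at −0.23 and Cebpb at −0.20 for CCH (adjusted p = 0.865 and 0.845), and Cebpb at −0.15 and Klf2 at −0.14 for CIH (1 and 0.911). A second measured Nr4a2 probe gave −0.05 in CIH cortex and −0.10 in CCH hippocampus, both smaller falls. In CIH hippocampus it gave 0.09, opposite in sign to the first (−0.11). Nr4a1, Klf4 and Myc did not reach detection on 3 arrays.

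Of 44 effector genes that follow neuronal activity, 13 were named, 10 were measured and none was called. In CCH cortex 2 lay above and 8 below control, with a median of −0.08, and Cdkn1a, a cyclin-dependent kinase inhibitor, at −0.19 (limma adjusted p = 0.617) and the RNA-binding protein gene Zfp36l1 at −0.17 (0.906) lay farthest from 0. In CIH cortex 4 lay above and 6 below, with a median of −0.01, Zfp36l1 at −0.23 (0.959) and the granin Scg2 at 0.16 (0.912). Zfp36l1 was at 0.30 in both hippocampal comparisons (adjusted p = 0.928 for CCH and 0.998 for CIH), Cdkn1a at 0.21 for CCH (0.753) and Coq10b, a coenzyme Q binding protein, at 0.37 for CIH (0.817). A second measured Cdkn1a probe gave 0.17 in CCH cortex, opposite in sign to the first.

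Of 16 MAP kinase phosphatases and feedback inhibitors 7 were named, 6 measured and none called. Dusp14 lay at −0.22 in CCH cortex (limma adjusted p = 0.505) and −0.28 in CIH cortex (0.678), and Dusp8 at 0.21 (0.827) and 0.16 (0.96). In hippocampus the Ras inhibitor Rasa1 was at −0.29 for CCH (0.72) and −0.19 for CIH (0.983), and Dusp8 at −0.19 (0.956) and −0.11 (1).

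The upstream list of kinases and of SRF and CREB factors, as reported here, held 38 genes, 23 named and 9 measured, and none was called. In CCH cortex all 9 genes lay above control, as did 49.5% of all probes, and their median was 0.23 against −0.00 over all probes. The calcium-dependent kinase Camkk2 (0.35, limma adjusted p = 0.65) and the small GTPase gene Hras (0.29, 0.607) were farthest from 0. In CIH cortex 6 lay above and 3 below control, with a median of 0.04, the calcineurin subunit Ppp3ca at −0.15 (0.803) and Camkk2 at 0.13 (0.973). In hippocampus Hras was at 0.17 for CCH (0.932) and 0.26 for CIH (0.952), Ppp3ca at −0.13 for CCH (0.735) and Camkk2 at 0.15 for CIH (1). The CREB gene Creb1 and the SRF partners Elk1, Elk3 and Elk4 were detected on 0 arrays.

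Over the 6 lists 39 reported genes were measured, and Egr2 and Fosl2 were the only 2 called in any of the 4 comparisons with control. Both were chosen with earlier results of these data known. Over all probes 0.846% and 0.15% were called for CCH and CIH in cortex and 0.518% and 0.0614% in hippocampus, so 0 calls among the other 37 genes is near the background. The other 37 lay between −0.23 and 0.35 in CCH cortex and between −0.28 and 0.22 in CIH cortex.

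**Figure D4:**
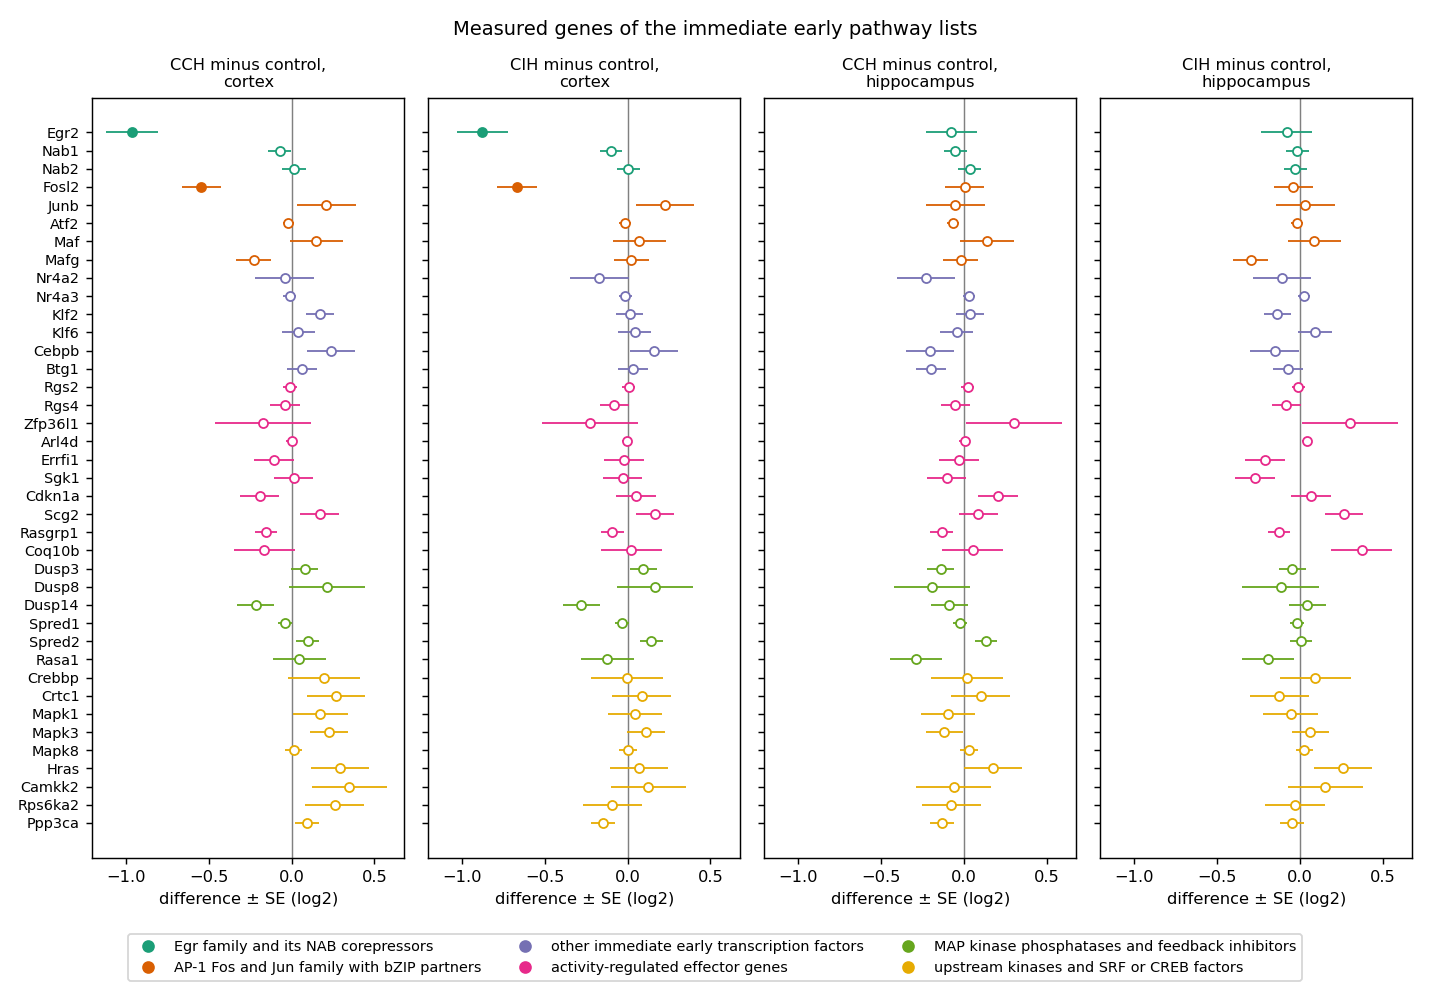
Differences from control ± SE (log2) of the 39 measured genes of the 6 lists in the 4 comparisons with control, 1 probe per gene, coloured by list, with filled markers for an adjusted p under 0.05. Only Egr2 and Fosl2 in the cortical panels are filled, and all other genes lie between −0.23 and 0.35 in CCH cortex and between −0.28 and 0.22 in CIH cortex.

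The named genes whose pattern was most like that of each factor were found by Pearson correlation over the 18 arrays, after the mean of each tissue had been subtracted, among 3884 named genes. For Egr2 these were Gcat, a glycine-forming enzyme of mitochondria (r = 0.78), the potassium leak channel Kcnk13 (0.76), the kinase Lrrk2 (0.76), the lysophosphatidic acid receptor Lpar1 (0.75) and Fosl2 (0.75). For Fosl2 they were Egr2 (0.75), the salt-inducible kinase Sik2 (0.75), the Golgi phosphatase Bpnt2 (0.74), the guanine nucleotide exchange factor Arhgef3 (0.73) and the integrin subunit Itgb4 (0.70). Each factor was thus among the 5 genes most like the other. Differences between control and hypoxia were left in these values. Both factors were chosen with earlier results known and both fell in hypoxic cortex, so their likeness follows in part from the choice. The points share arrays, slides and normalization, and the correlations are descriptions.

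Egr2 and Fosl2 correlated at 0.82 over the 9 cortical arrays and at 0.41 over the 9 hippocampal arrays, where Egr2 is near its limit. The other 8 genes were picked by their likeness over the same arrays, so low values in hypoxic cortex were in part built into the choice. In CCH cortex Lpar1 lay at −0.68 (limma adjusted p = 0.0411) and Sik2 at −0.20 (0.0222), both called lower. Of all probes 0.846% were called in that comparison. Gcat at −0.48 (0.0665), Kcnk13 at −0.41 (0.091) and Itgb4 at −0.19 (0.0533) did not pass. In CIH cortex Lpar1 was at −0.53 (0.28), Kcnk13 at −0.38 (0.287) and Sik2 at −0.18 (0.0913), and none of the 8 genes other than Egr2 and Fosl2 passed.

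Levels of cell type markers are given here for the comparisons in which the 2 factors fell. The mean of the 6 measured of 10 myelin markers was 9.75 to 9.89 in control cortex, 9.30 to 9.51 in CCH cortex and 9.27 to 9.59 in CIH cortex, with all 6 genes below control in both. In hippocampus the same mean was 9.30 to 9.69 in control, 8.48 to 8.93 in CCH and 8.86 to 9.34 in CIH. The mean of the 3 measured of 7 blood markers was 9.48 to 10.21 in control cortex, 10.87 to 11.30 in CCH cortex and 9.82 to 10.26 in CIH cortex. The 3 measured of 10 endothelial markers averaged 7.63 on all control cortex arrays, 8.01 to 8.14 in CCH cortex and 7.69 to 7.71 in CIH cortex.

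Slc17a7, a vesicular glutamate transporter and the 1 measured of 7 excitatory neuron markers, lay at 10.11 to 10.50 in control cortex, 10.31 to 11.13 in CCH cortex and 10.41 to 10.44 in CIH cortex. The 3 measured of 8 astrocyte markers averaged 7.62 to 7.72, 7.44 to 7.72 and 7.65 to 7.81 in the same groups, and the 3 measured of 10 microglial markers 7.46 to 7.68, 7.54 to 7.85 and 7.36 to 7.55. The striatal dopamine receptor Drd1 lay at 8.93 to 8.99, 8.92 to 9.29 and 8.76 to 8.92, the choroid plexus gene Clic6 at 7.35 to 7.80, 7.46 to 7.64 and 7.93 to 8.15, and the mean of the fibroblast genes Dcn and Col1a1 at 8.07 to 8.20, 7.88 to 8.13 and 8.01 to 8.11. Lhx6 for interneurons, Olig2 for oligodendrocyte precursors, Acta2 for mural cells and the microglial genes Cd68 and Itgam were detected too rarely to enter the tests. The raw 18S ribosomal RNA signal was 10916 to 12878.7 in control cortex, 5132.3 to 8551.67 in CCH cortex and 9416.53 to 12008.7 in CIH cortex, so it was lower in CCH cortex and overlapped control in CIH cortex. The part of these cell types and of the 18S signal in the falls of Egr2 and Fosl2 was not tested.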

How the data were processed

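Probe intensity and a detection score were read from the deposited scanner export of 18 Illumina Mouse-6 V1 arrays, each labelled from 100 ng of total RNA per the labels. Per the file headers the intensity was not normalized. The detection score is a fraction, as deposited, that ranks a probe against negative controls. The submitters' processing notes name BeadStudio 2.0 and the export header names version 1.5.1.3. The export's 72 further columns were not used. The deposited series values served as an alternative.

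Intensities were processed with neqc (limma 3.58.1, R 4.3.3; detection p as 1 minus the score, offset 16, quantile normalization, log2). A probe was tested if its score exceeded 0.99 on 3 or more arrays, which 14664 did. The model had 1 mean for each of the 6 groups (lmFit, then eBayes), and two-sided p-values were adjusted by Benjamini and Hochberg over all probes of each of 11 comparisons, with calls at an adjusted p under 0.05. Only 3 arrays per group limit the precision.

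Gene names came from the number in zero-padded identifiers, read as an NCBI gene ID. Of 11897 such identifiers 82.6% matched a mouse gene in RefSeq (GRCm38.p6), against 32.9% and 33.4% when shifted by 100 up or down. They named 4402 (30%) of the tested probes. Members, lists and tests were chosen with earlier results of these data known. The text names all probes of Egr2 and Fosl2, the measured EGR and AP-1 genes, in other lists the called genes and the 2 farthest from 0 per comparison, and the 5 most alike genes. Where a gene had several measured probes, the one with the highest mean signal stood for it.

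Replicate numbers equal slides in the deposited hybridization log. After group means were removed, 31 of 45 pairs of arrays with the same number had a correlation over 0.1, with a median of 0.226, and of 90 pairs with different numbers 17 did, with a median of −0.0966. The series text calls the CIH mice CCH treated, and the titles were followed. A gene of the upstream list and a cortical marker are not reported here and are left out of the counts, medians and ranges of their lists.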

Additional observations from a re-analysis of the deposited data

How the results depend on the processing

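The 22 differences of Egr2 and Fosl2 and the 11 counts of called probes were recomputed under 10 alternatives and without each array of the groups compared. Over the alternatives other than left-out arrays, 176 of 209 member differences kept their direction and side of the threshold, 28 were no longer called, 3 became called and 2 changed sign. Why a call changed was not tested, except where the construction of the setting shows it. The arrays with Xist detected are here called high Xist.

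No background correction gave −0.40 for Fosl2 in CCH cortex (limma adjusted p = 0.0535), called Egr2 in CCH hippocampus against CCH cortex (−0.84, adjusted p = 0.00124), and called 45 probes for CIH in cortex and 27 for CIH in hippocampus, against 22 and 9. An offset of 50 gave −0.49 for Fosl2 in CCH cortex (0.0556), −0.75 for Egr2 (0.0516) and −0.60 for Fosl2 (0.054) in CIH cortex, and −0.42 for Egr2 in CIH hippocampus against CIH cortex (0.0601), with 14 probes called for CIH in cortex. Median scaling turned the CCH difference in hippocampus to 0.0782 for Egr2 (0.776) and to −0.00838 for Fosl2 (0.973), and called 21 probes for CIH in hippocampus and 3211 for CCH hippocampus against CCH cortex. With no filter on detection, which tests more probes, the same differences had an adjusted p of 0.132 for Fosl2 in CCH cortex (−0.55), 0.102 for Egr2 (−0.88) and 0.101 for Fosl2 (−0.67) in CIH cortex, and 0.108 for Egr2 in CIH hippocampus against CIH cortex (−0.54). It called 72 probes for CCH and 6 for CIH against control in cortex, and 36 in cortex and 22 in hippocampus for CIH against CCH. Detection on all arrays left out Egr2 and changed no Fosl2 call.

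Fits on the groups compared alone, with fewer arrays, gave an adjusted p of 0.142 for Egr2 (−0.97) and 0.102 for Fosl2 (−0.55) in CCH cortex, 0.419 for Egr2 (−0.88) and 0.0626 for Fosl2 (−0.67) in CIH cortex, 0.0161 for Egr2 in CCH hippocampus against CCH cortex (−0.44) and 0.105 in CIH hippocampus against CIH cortex (−0.54). They called 38 probes for CCH in cortex, 14 for CCH and 0 for CIH in hippocampus, 33 and 20 for CIH against CCH in cortex and hippocampus, 1135 for the control tissues and 1201 for the CCH tissues. The replicate block, which pairs the arrays of a slide, left Fosl2 uncalled at −0.55 (0.0562) in CCH cortex and −0.67 (0.0616) in CIH cortex and changed no other call of either gene.

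Without the arrays with high Xist the cortical values stand in the results, and Egr2 and Fosl2 were at −0.85 and −0.59 for CCH and −0.75 and −0.72 for CIH. Egr2 in CIH hippocampus against CIH cortex was at −0.66 (0.111). The counts then were 743 for CCH and 3 for CIH in cortex, 41 and 3 in hippocampus, 368 and 17 for CIH against CCH in cortex and hippocampus, 954 for the CIH tissues and 123 for the interaction with CCH. High Xist as a covariate left Fosl2 uncalled in CCH cortex (−0.54, 0.0901) and both Egr2 (−0.83, 0.0791) and Fosl2 (−0.66, 0.0813) in CIH cortex, called Egr2 in CCH hippocampus against CCH cortex (−0.50, 0.0465) and called 17 probes for CIH in hippocampus.

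The deposited series values leave dim cells empty, and these were set to the lowest value of their array. In these values a constant of 192.28 to 253.59 had been subtracted from every array except control cortex 2, which had none. That array is in the control group of both cortical comparisons. Egr2 was then at −10.05 (0.0664) in CCH cortex, −8.03 (0.369) in CIH cortex and −3.41 (0.615) in CIH hippocampus against CIH cortex, sizes that come from the filled cells. Fosl2 was at −0.90 (0.077) in CCH cortex. The counts were 79 for CCH in cortex, 50 for CCH and 18 for CIH in hippocampus, 911, 1122 and 807 for the control, CCH and CIH tissues, and 5 and 3 for the interactions with CCH and CIH.

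With each array left out in turn, Egr2 ran from −1.11 to −0.77 in CCH cortex (called 6 of 6 times), −1.07 to −0.69 in CIH cortex (2 of 6) and −0.66 to −0.35 in CIH hippocampus against CIH cortex (1 of 6). Fosl2 ran from −0.63 to −0.48 in CCH cortex (1 of 6), −0.72 to −0.60 in CIH cortex (0 of 6) and 0.18 to 0.40 in the control tissues (1 of 6). Uncalled differences near 0 changed sign in some of these fits: Fosl2 ran from −0.0935 to 0.135 for CCH and −0.139 to 0.0893 for CIH in hippocampus, and from −0.160 to 0.0186 for CIH against CCH there, while Egr2 ran from −0.0996 to 0.210 and −0.0270 to 0.0376 for CIH against CCH in cortex and hippocampus. Called probes ran from 62 to 117 for CCH in cortex, with 62 and 64 without control cortex 1 and 3 and 69 without CCH cortex 1 or 3. They ran from 4 to 20 for CIH in cortex, with 7 and 10 without control cortex 1 and 3 and 4 and 7 without CIH cortex 1 and 2. In hippocampus they ran from 52 to 126 for CCH and 8 to 52 for CIH, with 126 and 52 without control hippocampus 1. For CIH against CCH they ran from 31 to 49 in cortex and 24 to 35 in hippocampus, with 42 and 37 without CCH cortex 1 and 3, 42, 31 and 35 without CIH cortex 1, 2 and 3, 26 without CCH hippocampus 1, and 27 and 24 without CIH hippocampus 2 and 3. They ran from 1391, without CCH hippocampus 2, to 1912 for the CCH tissues, and from 0 to 1, without CCH hippocampus 1, for the interaction with CCH.

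Egr2 in hippocampus was limited by signal over background, and no alternative lifts that limit.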
